A study of Mus musculus with 8 samples.

Results

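Epithelial-to-mesenchymal transition (EMT) genes were followed in organoids from mammary tumors of mice carrying MMTV-PyMT, MMTV-Cre and Ecadherin-mCFP, with and without SOX4. The 10 genes were chosen by name, with earlier results of these data known but with no measured value in the rule: the transcription factors Snai1, Snai2, Twist1, Zeb1 and Zeb2, the cadherins Cdh1, Cdh2 and Cdh3, and the mesenchymal genes Vim and Fn1. All 10 were among the 38293 gene identifiers of the bulk libraries, whereas the single-cell libraries listed 8 (GR17), 9 (GR18) and 8 (GR19) of them among 13493 to 13900 genes. Bulk RNA came from 2 control organoid lines (WT1 and WT3) and 3 SOX4KO lines (H7, M4 and H4). Single cells came from 1 control line (GR17) and 2 SOX4KO lines (GR18 and GR19), and the labels do not say which bulk line each of these corresponds to. Every line carried the PyMT oncogene and Cre under the mammary MMTV promoter together with the fluorescent E-cadherin reporter, so the controls shared all of these alleles, and SOX4KO lines differed from them by CRISPR/Cas9 targeting of Sox4. All organoids had been dissociated to single cells and grown for 4 days in DMEM/F12 medium with B27 supplement and FGF2. Each line is a separate organoid line, so the p-values measure the spread between lines of 1 tumor model, and nothing in the labels places the lines in separate animals.

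EMT is a program of development and wound repair in which cells of an epithelial sheet come to resemble mesenchyme. Transcription factors of the SNAIL, TWIST and ZEB families can repress E-cadherin, the adhesion molecule encoded by Cdh1, while N-cadherin (Cdh2), vimentin (Vim) and fibronectin (Fn1) are the products most often used as signs of the mesenchymal state. In the normal mammary gland several of these genes also belong to the basal layer: SNAI2 and P-cadherin (Cdh3) are known from basal cells, which lie around the luminal cells and carry keratins 5 and 14 in place of keratins 8 and 18.

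The bulk libraries held 3050323 to 4678497 reads on genes, and 11682 genes had enough counts to be tested. Reads on genes were 22.4% and 28.4% of the counting totals in WT1 and WT3, and 21.2%, 16.1% and 25.9% in H7, M4 and H4. The part of this share in the levels was not tested. The single-cell libraries, made on plates, held 369, 369 and 362 cells with medians of 19845, 20525 and 21876 unique molecular identifiers (UMIs, each marking 1 captured transcript molecule). No well had the same counts in 2 libraries, and the columns carry well numbers rather than barcodes. Sox4 RNA itself was at 295 and 374 CPM in the control and at 199, 179 and 299 CPM in the SOX4KO bulk lines (log2 fold change −0.57, adjusted p = 0.277 in edgeR), so H4 was not below WT1, and the transcript does not measure the protein. Cell types other than epithelium left little RNA in the organoids. In the bulk lines the 6 endothelial markers summed to 1.29 to 3.96 CPM with Cdh5, Kdr and Emcn at 0 in all lines, and the 7 immune markers to 1.99 to 14.4 CPM with Lyz2 and Cd3e at 0. The 9 fibroblast markers summed to 322 and 213 CPM in the control and 132 to 144 CPM in the SOX4KO lines, mostly Col1a1 and Pdgfra, with Fap at 0, and to 10.6 to 14.8 CPM in the single-cell libraries.

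The start regions of members that the RefSeq table of GRCm38.p6 holds are shown for Vim, which differed between genotypes, and for Twist1 and Snai1, whose start regions hold a searched motif. Each run gives the 250 bases before the start, 5′ to 3′ on the strand of the gene, and capitals mark the letters of a searched motif.
Vim, chr2:13574061-13574310, plus strand: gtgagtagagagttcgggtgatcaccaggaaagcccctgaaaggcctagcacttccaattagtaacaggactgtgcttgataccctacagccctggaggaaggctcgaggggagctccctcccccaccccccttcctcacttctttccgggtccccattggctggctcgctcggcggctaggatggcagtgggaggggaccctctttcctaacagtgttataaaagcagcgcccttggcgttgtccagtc
Twist1, chr12:33957421-33957670, plus strand: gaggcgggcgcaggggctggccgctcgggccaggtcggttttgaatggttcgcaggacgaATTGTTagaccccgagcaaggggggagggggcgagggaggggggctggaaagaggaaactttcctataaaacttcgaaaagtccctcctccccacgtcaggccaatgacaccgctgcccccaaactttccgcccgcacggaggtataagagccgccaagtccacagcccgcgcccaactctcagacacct
Snai1, chr2:167537945-167538194, plus strand: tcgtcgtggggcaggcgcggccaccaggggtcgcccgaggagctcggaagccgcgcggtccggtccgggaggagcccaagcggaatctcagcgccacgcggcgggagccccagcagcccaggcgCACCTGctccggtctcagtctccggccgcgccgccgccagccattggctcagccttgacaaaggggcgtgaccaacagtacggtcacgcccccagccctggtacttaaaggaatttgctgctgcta
The motifs searched on both strands were the E-box CAGGTG, to which SNAIL and ZEB proteins bind, and the SOX-type letters AACAAAG and AACAAT. Snai1 held 1 E-box, 126 to 121 bases before the start, and Twist1 held 1 copy of AACAAT, on the opposite strand, 190 to 185 bases before the start. Vim held none of the 3 motifs in this window, nor did the 4 start regions listed for Zeb2. Only these 4 of the 10 members (Snai1, Twist1, Vim and Zeb2) were searched. No start region was searched for Snai2, Zeb1, Cdh1, Cdh2, Cdh3 or Fn1. Among 32851 start regions of the same length, 17.2% held the E-box, 5.03% held AACAAAG and 9.42% held AACAAT. These matches describe letters in a short window and not binding.

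Across the 8 members with enough counts in bulk, Vim and Snai2 were higher in SOX4KO organoids, and no member was lower. This is 2 of 8 where 6.27% of all genes tested were called, 4.1% as higher and 2.17% as lower in SOX4KO lines, and since the members were picked with results known the count is a description. The groups did not overlap for 4 of the 8 members (Snai2, Twist1, Cdh2 and Vim), against 36.9% of all genes tested. These 4, all higher, had an unadjusted p under 0.05 in edgeR, as did 2113 of all 11682 genes tested. DESeq2 also called 2 members. A gene was called at an adjusted p under 0.1 in edgeR's quasi-likelihood test, adjusted over all genes tested. In bulk RNA, fewer cells of a type and less RNA per cell cannot be told apart. The plot of normalized CPM by line shows each member in each line.

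**Figure D1:**
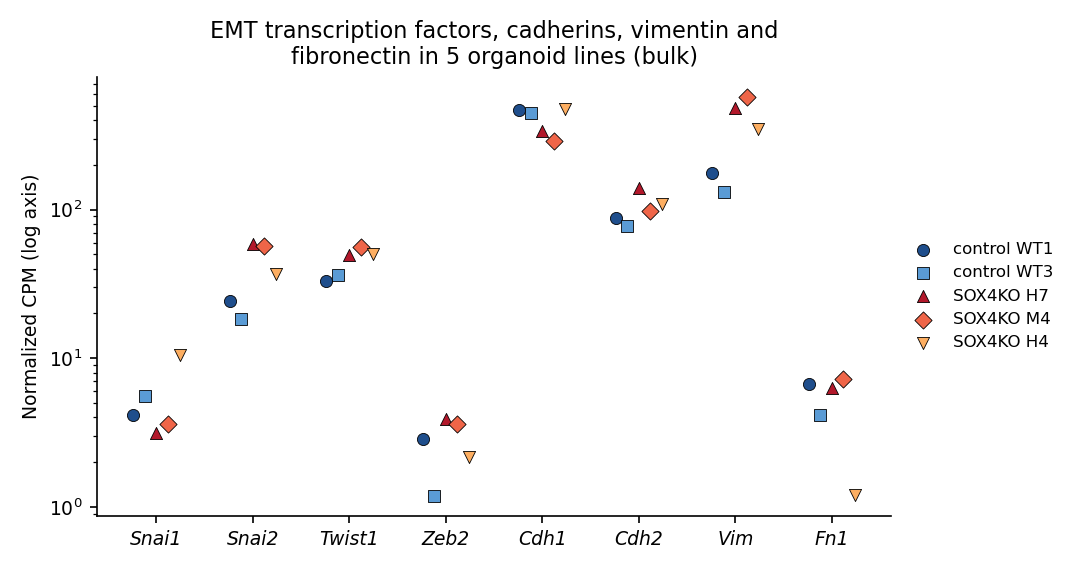
Normalized CPM (log axis) of the 8 tested members in each bulk line, 1 point per line, in blue for the 2 control and in red to orange for the 3 SOX4KO lines. Vim lay at 131 and 177 CPM in the control and at 347 to 573 CPM in the SOX4KO lines, while the groups overlapped for Snai1, Zeb2, Cdh1 and Fn1.

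Among the transcription factors, Snai2, which encodes SLUG, was counted at 24.3 CPM in WT1 and 18.3 CPM in WT3, and at 58.2 CPM in H7, 57.2 CPM in M4 and 36.6 CPM in H4. The SOX4KO lines all lay above both control lines, and H4 was the closest to them. The mean rose from 21.3 ± 4.25 CPM (SD, n = 2) to 50.7 ± 12.2 CPM (SD, n = 3), a log2 fold change of 1.25 (standard error 0.27, 95% confidence interval 0.64 to 1.86) with an adjusted p of 0.0491 in edgeR. Twist1, a basic helix-loop-helix factor of mesoderm, was the most abundant of the 5 factors in the control lines once corrected for transcript length. Twist1 had 32.9 and 36.2 CPM in WT1 and WT3 and 49.8, 56.2 and 50.3 CPM in H7, M4 and H4. These groups did not overlap and the lines of each were close together, yet the log2 fold change of 0.59 (standard error 0.18, 95% confidence interval 0.18 to 0.99) was not called over all genes tested (adjusted p = 0.125 in edgeR).

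Snai1, which encodes SNAIL, was a low gene with 4.14 and 5.58 CPM in WT1 and WT3 and 3.13, 3.60 and 10.5 CPM in H7, M4 and H4. H4 was the highest and H7 the lowest of the 5 lines, so the SOX4KO lines lay on both sides of the control lines (log2 fold change 0.26, 95% confidence interval −1.03 to 1.56, adjusted p = 0.861 in edgeR), and without H4 the value was −0.54. The ZEB factors, zinc finger repressors of epithelial genes, were nearly undetected. For Zeb2 the control lines WT1 and WT3 gave 11 and 6 counts, and H7, M4 and H4 gave 15, 10 and 9 (a difference of 0.69 on the log2 scale with a standard error of 0.57, adjusted p = 0.598 in edgeR). Zeb1 had 0 counts in 4 of the lines and 2 counts in M4 and could not be tested.

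No cadherin was called in bulk. Cdh1, the epithelial cadherin, was at 469 CPM in WT1 and 448 CPM in WT3, and at 336 CPM in H7, 289 CPM in M4 and 474 CPM in H4. H7 and M4 lay below both control lines while H4 lay above them, and the log2 fold change of −0.32 (standard error 0.23, 95% confidence interval −0.85 to 0.21) was not called (adjusted p = 0.531 in edgeR). Cdh2 was at 88 and 77.3 CPM in WT1 and WT3 and at 140, 98.3 and 109 CPM in H7, M4 and H4. Although every SOX4KO line was above both control lines, the difference of 0.49 on the log2 scale (standard error 0.20, 95% confidence interval 0.027 to 0.95) was not called (adjusted p = 0.253 in edgeR). Cdh3, the P-cadherin of basal mammary cells, stood at 1 count in WT1 and 5 in WT3, with 6, 2 and 2 counts for H7, M4 and H4, too few to test.

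Vim, the intermediate filament protein of mesenchymal cells, had the largest difference of the 8 tested members. It was counted at 177 CPM in WT1 and 131 CPM in WT3, and at 485 CPM in H7, 573 CPM in M4 and 347 CPM in H4. The mean rose from 154 ± 32.5 CPM (SD, n = 2) to 468 ± 114 CPM (SD, n = 3), which is 3.04-fold or 1.61 on the log2 scale (standard error 0.26, 95% confidence interval 1 to 2.21, adjusted p = 0.0236 in edgeR). With either control line left out neither Vim nor Snai2 was called, and the adjusted p reached 0.306 for Vim and 0.462 for Snai2, whereas both were called with any 1 SOX4KO line left out. The log2 fold changes themselves were 1.84 without WT1 and 1.40 without WT3 for Vim, and 1.46 and 1.05 for Snai2. Fn1, a matrix glycoprotein, stood at the other end. WT1 and WT3 gave 26 and 21 counts of Fn1, while H7, M4 and H4 gave 24, 20 and 5, and the groups overlapped (−0.19 on the log2 scale with a standard error of 0.64, adjusted p = 0.92 in edgeR).

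**Figure D2:**
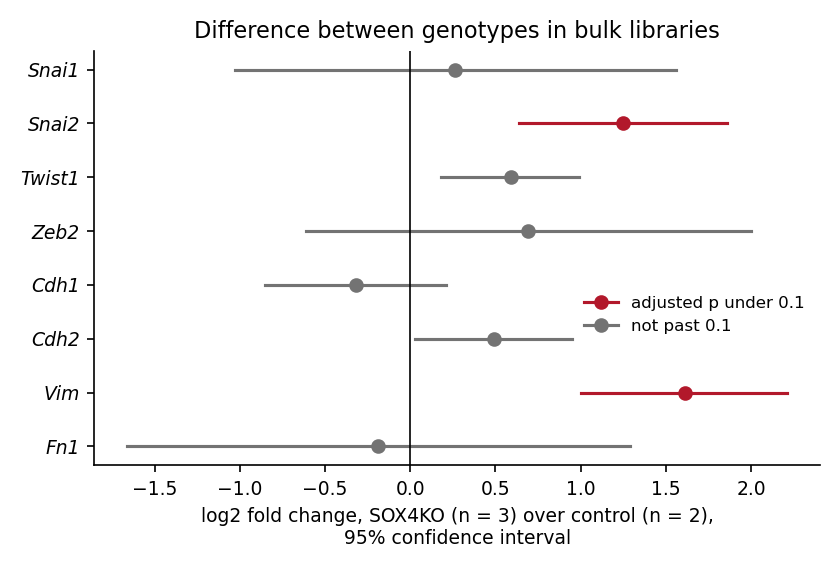
Log2 fold change of SOX4KO over control lines (points) with its 95% confidence interval (bars) for the 8 tested members in bulk, in red where the adjusted p was under 0.1. Only the intervals of Snai2, Twist1, Cdh2 and Vim lie above 0, and of these Snai2 (1.25) and Vim (1.61) were called over all genes tested.

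Corrected for transcript length, Cdh1 led the members in control organoids with a mean of 100 RPKM, followed by Vim at 32.4, Twist1 at 21.2, Snai2 at 10.6, Cdh2 at 10.2, Snai1 at 3, Fn1 at 0.467, Cdh3 at 0.143 and Zeb2 at 0.101 RPKM. Snai2 and Cdh2 could not be ordered, since the control lines gave 12.0 and 9.07 RPKM for the first and 10.9 and 9.58 RPKM for the second. In SOX4KO organoids Vim (102, 121 and 73.2 RPKM) overlapped with Cdh1 (73.4, 63.3 and 104 RPKM). The ratio of Cdh1 to Vim in RPKM was 2.75 and 3.55 in the control lines and 0.717, 0.524 and 1.42 in H7, M4 and H4, so it was above 1 in H4 alone of the SOX4KO lines. The ratio of Cdh1 to Cdh2 in RPKM was 9.39 and 10.2 in the control lines and 4.24, 5.19 and 7.65 in H7, M4 and H4, and Cdh1 stayed the higher of the pair in each line.

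Other genes of the same pathway were described by lists, beside a median log2 fold change of 0.0087 over all genes tested, of which 6.27% were called. Of 11 other EMT transcription factors 6 were tested and 1 was called, Tcf3 (which encodes the E2A proteins), whose log2 fold change was −0.67 (adjusted p = 0.0892, edgeR). None of 11 other cadherins had enough counts to be tested, and those of highest mean level, Cdh11 and Cdh17, stayed at or under 1.08 CPM in each line. Of 8 genes for proteins that bind cadherins or link them to actin, 7 were tested, 5 were above and 2 below 0, and 0 were called by edgeR or DESeq2, with 0 at an unadjusted p under 0.05 and a median of 0.10. Ctnnb1, which encodes β-catenin, was at 0.10 (standard error 0.21) and Jup, which encodes plakoglobin, at 0.49 (standard error 0.25).

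Epithelial genes other than Cdh1 mostly had lower values in SOX4KO organoids, with 16 of 19 tested below 0 and a median of −0.52. Over all 11682 genes tested, 5741 were below 0. Of the 19, edgeR called 2, both lower, and DESeq2 called 5, beside 2.17% of all genes tested called lower by edgeR. For 14 of the 19 the groups did not overlap, beside 36.9% of all genes tested. An unadjusted p under 0.05 in edgeR was found for 11 of the 19, and for 2113 of all 11682 genes tested. Grhl1, a transcription factor of epithelial differentiation, fell by 0.95 in log2 units (adjusted p = 0.0298, edgeR), and the membrane protease gene Prss8 fell by 1.06 (adjusted p = 0.0288). Of 21 other mesenchymal genes 11 were tested, with a median of 0.95, 3 called higher and 1 lower, beside 4.1% and 2.17% of all genes tested. Axl, a receptor tyrosine kinase, rose by 1.62 (adjusted p = 0.0325 in edgeR), the integrin subunit Itgb3 by 0.95 (adjusted p = 0.043) and the matricellular gene Sparc by 1.82 (adjusted p = 0.0891), whereas Col1a1 fell by 1.39 (adjusted p = 0.0624). Sparc is also on the list of basal markers and Col1a1 on that of fibroblast markers.

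Markers of cell type and of proliferation moved in the same comparison as Vim and Snai2. As a background for these lists, edgeR's calls among the 11682 genes were 4.1% upward and 2.17% downward. Values below 0 were found for 5741 of these genes. Of 14 basal markers 10 were tested, with a median of 0.71 and summed levels of 18800 and 16900 CPM in the control and 20500 to 24200 CPM in the SOX4KO lines. Most of this sum was Igfbp5, at 16600 and 15400 CPM in the control and 15600 to 19100 CPM in the SOX4KO lines, with a log2 fold change of 0.11 (adjusted p = 0.865 in edgeR). Oxtr (2.03, adjusted p = 0.0256 in edgeR), Jag2 (0.92, adjusted p = 0.0575) and Sparc were called higher and Lgr6 lower (−1.55, adjusted p = 0.0158), while Acta2, Myh11, Cnn1 and Tagln stayed near 0 counts. The basal keratin genes were not called. Krt14 (0.33, adjusted p = 0.834 in edgeR) was at 235 and 240 CPM in WT1 and WT3 and at 107, 601 and 187 CPM in H7, M4 and H4. Krt5 (1.47, adjusted p = 0.312) was at 191 and 47.8 CPM against 410, 472 and 112 CPM, and Krt17 was at −1.08 (adjusted p = 0.536). Of 16 luminal markers 14 were tested, with a median of −0.25, Esr1 called higher (1.64, adjusted p = 0.039 in edgeR), Prom1 (−1.70, adjusted p = 0.0092) and Cited1 (−1.44, adjusted p = 0.0565) called lower, and summed levels of 5290 and 4910 CPM against 5510 to 10500 CPM, of which Lcn2, not called, gave 2170 CPM in each control line and 3150 to 5890 CPM in the SOX4KO lines. Of the 9 fibroblast markers 5 were tested and Col1a1 and Col6a3 (−1.77, adjusted p = 0.0624 in edgeR) were called lower. The others were not called, with Pdgfra at −0.55 (adjusted p = 0.303), Pdgfrb at 1.41 (adjusted p = 0.517) and Dcn at 0.61 (adjusted p = 0.783). Of the endothelial markers none could be tested, with Pecam1 at 1.04 to 2.16 CPM and Vwf at up to 1.44 CPM, and of the immune markers Cd68 alone was tested (2.05, adjusted p = 0.252), with Cd74 at up to 0.36 CPM. All 8 cycling markers were below 0 and 4 were called lower, Ccnb1 (−1.48, adjusted p = 0.0275 in edgeR), Mcm6 (−1.11, adjusted p = 0.0325), Top2a (−0.78, adjusted p = 0.0718) and Mki67 (−0.85, adjusted p = 0.0822). The part of these lists in the levels of Vim and Snai2 was not tested.

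In single cells the members fell into the same order of abundance in all 3 libraries apart from the rarest ones. Taken per all UMIs, Vim did not differ from the control library in the same direction in the SOX4KO libraries. UMIs count molecules, so these levels need no correction for length. Vim was at 716 CPM in the control library GR17, with a 95% exact Poisson interval of 698 to 736. GR18 gave 779 CPM (760 to 799) and GR19 688 CPM (670 to 706), so the SOX4KO libraries lay on both sides of the control library, at 1.09 and 0.961 times its level. All UMIs include those of mitochondrial genes and of the gene Rn45s, whose shares were not the same in the libraries. Mitochondrial genes made up 11.4% of UMIs in GR17 and 15.1% in GR19, with GR18 between them. Rn45s made up 5.01%, 3.38% and 6.01% in GR17, GR18 and GR19. Whether Vim keeps these directions per the remaining UMIs was not tested. With 1 control library no test between genotypes was run, and intervals cover counting error only. Cdh1 was at 220 CPM in GR17, 201 CPM in GR18 and 208 CPM in GR19. Cdh2 was at 49.9, 53.9 and 45.6 CPM, and Twist1 at 137, 132 and 115 CPM, in the same order. Over these 4 genes the SOX4KO libraries lay between 0.84 and 1.09 times the level of GR17. Beyond counting error, and per all UMIs, Vim was above GR17 in GR18 and below it in GR19. Cdh1 was below GR17 in GR18 (0.914 times, 0.854 to 0.979) and Twist1 in GR19 (0.84 times, 0.769 to 0.918). In bulk Twist1 had been higher in each SOX4KO line, though not called, and this gap was not tested.

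Snai2 was higher in both SOX4KO libraries, with 123 CPM in GR18 (115 to 131) and 99.9 CPM in GR19 (93.2 to 107) against 78 CPM in GR17 (71.9 to 84.5), which is 1.57 and 1.28 times the control level. Snai1 showed the largest relative difference, with 30 UMIs in GR17, 65 in GR18 and 139 in GR19. Its level was 3.89 CPM (2.62 to 5.55) in the first library, 8.12 CPM (6.26 to 10.3) in the second and 16.8 CPM (14.1 to 19.8) in the last. The SOX4KO libraries were thus at 2.09 (95% counting interval 1.33 to 3.33) and 4.31 (2.89 to 6.62) times the control library, and they also differed from each other. Zeb2 had 7, 15 and 7 UMIs, Fn1 3, 1 and 1 UMIs and Zeb1 0, 1 and 0 UMIs. Zeb1 was not listed in GR17 and GR19, and Cdh3 was not listed in any of the 3 libraries. Both were taken as 0 UMIs there, and whether an unlisted gene could have been counted is not known. If Cdh3 was counted and had no UMI in the 1100 cells, 0 of 24020553 UMIs would allow up to 0.125 CPM. The bulk lines, from another assay, gave 0.259 to 1.57 CPM.

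**Figure D3:**
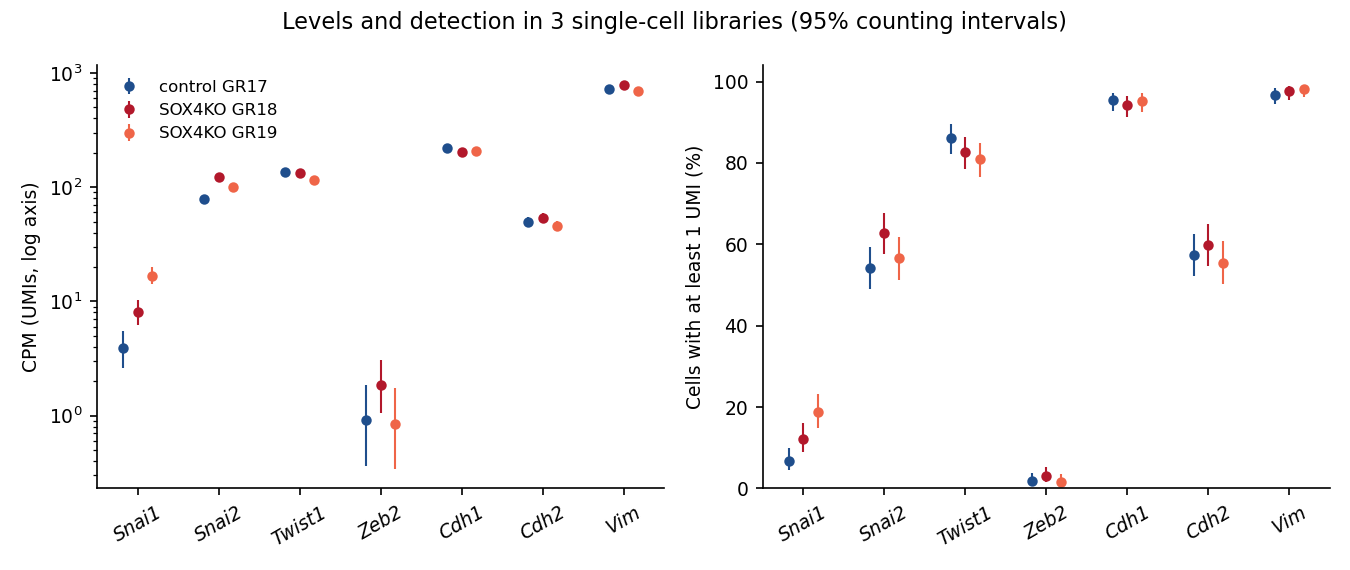
CPM from UMIs (left, log axis) and share of cells with at least 1 UMI (right) for 7 members in the control library GR17 and the SOX4KO libraries GR18 and GR19, with 95% counting intervals. In CPM, Vim, Cdh1, Cdh2 and Twist1 of the SOX4KO libraries lie between 0.84 and 1.09 times GR17. Snai1 is lowest in GR17 (3.89 CPM) and highest in GR19 (16.8 CPM).

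Vim and Cdh1 were found in nearly every cell. At least 1 UMI of Vim was counted in 96.7% of cells in GR17, 97.6% in GR18 and 98.1% in GR19, and of Cdh1 in 95.4%, 94.3% and 95.3%. Twist1 was detected in 86.2%, 82.7% and 80.9% of cells, Cdh2 in 57.5%, 59.9% and 55.5%, Snai2 in 54.2%, 62.9% and 56.6%, and Snai1 in 6.78%, 12.2% and 18.8%. The detection of Snai1 thus differed in the same direction as its level. Of the 5 factors, exactly 2 were detected in 47.4%, 49.9% and 49.2% of the cells of GR17, GR18 and GR19.

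Detection of Cdh1, Cdh2 and Vim together was common and close to what the single shares give. With all UMIs, 204 of 369 cells in GR17 (55.3%), 206 of 369 in GR18 (55.8%) and 191 of 362 in GR19 (52.8%) held all 3 transcripts, and the product of the single shares was 53%, 55.1% and 51.9%. Since detection depends on depth, each cell was also thinned to 5000 UMIs, which left out 8, 4 and 4 shallower cells. At that depth all 3 were detected in 13% of cells of GR17 (95% exact binomial interval 9.73% to 16.9%). The shares were 13.2% (9.86% to 17.1%) for GR18 and 10.3% (7.38% to 14%) for GR19, against products of 11.7%, 12.2% and 9.09%. The shares did not differ beyond their counting intervals between the control and the SOX4KO libraries. Cells with Vim but without Cdh1 and Cdh2 made up 26.9%, 25.2% and 24.9% at 5000 UMIs, where the products gave 25.1%, 25.7% and 25.3%. Cells of GR17 with Vim held a mean of 1.05 UMIs of Cdh1 at this depth, against 1.12 UMIs in cells without Vim. In GR18 these means were 1.06 and 0.833 UMIs, and in GR19 1.16 and 0.731 UMIs, so the sign of the difference was not the same in the libraries.

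**Figure D4:**
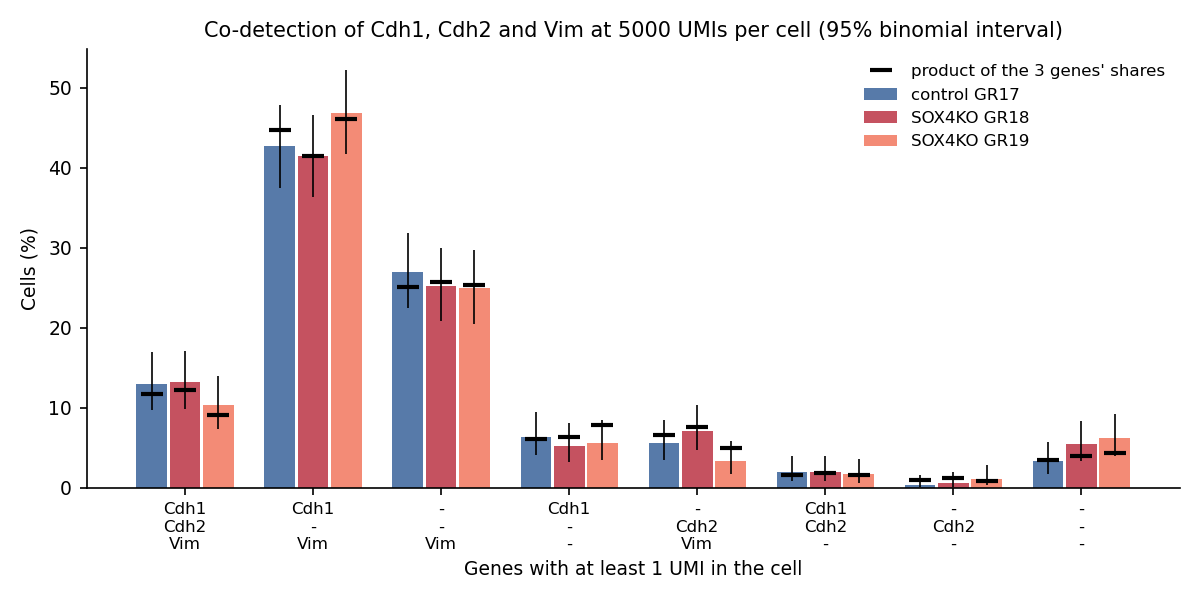
Share of cells (bars, with 95% exact binomial intervals) with each combination of Cdh1, Cdh2 and Vim at 5000 UMIs per cell in the 3 libraries, and the product of the single shares of the genes (black dashes). The bars lie near the dashes, with 13%, 13.2% and 10.3% of cells holding all 3 transcripts.

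Few cells lacked Cdh1, and most of these had fewer UMIs than the median cell of their library (15, 20 and 15 of them). No Cdh1 UMI was counted in 17 cells of GR17, 21 of GR18 and 17 of GR19. Their medians were 5707, 7271 and 10135 UMIs, against 20313, 21236 and 22389 UMIs in cells with Cdh1. Keratin 8 or 18, which mark simple epithelium, was detected in 15, 20 and 17 of them, and the epithelial adhesion gene Epcam in 13, 17 and 17. Vim was found in 14, 20 and 15 of these cells and Zeb2 in 0 of them in each library. Their summed Vim level was 932 CPM in GR17, 1160 CPM in GR18 and 406 CPM in GR19, against 712, 770 and 695 CPM in cells with Cdh1, so the 3 libraries did not share a direction.

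Among cells, the members followed different genes, ordered by their lowest correlation in the 3 libraries. Over the cells of each library, the genes whose levels ranked most like those of Snai2, among 7244 compared, were Sparc, Krt14, Krt5, the hemidesmosome integrin gene Itgb4 and Pi15, with Spearman correlations across cells of at least 0.40 in each library (0.43, 0.51 and 0.65 for Krt14 in GR17, GR18 and GR19). Against the luminal keratin gene Krt18 the correlation of Snai2 was −0.34, −0.47 and −0.57. Cdh2 ranked most like Sparc (0.26, 0.32 and 0.35), then Pi15, Fam101b, the laminin gene Lama3 and Slc6a6. These correlations describe cells of 1 library each, which share depth and plate and are not replicates.

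Vim ranked most like the glycolysis gene Pkm (0.34, 0.32 and 0.34), and then like the desmosome gene Pkp1, Tnnt2 and the glycolysis genes Pgk1 and Pgam1, each with at least 0.18. The correlation of Vim with the basal keratin genes was as high as with Pkm in GR17 but lower than that in GR18 and GR19 (0.35, 0.26 and 0.08 for Krt14, and 0.37, 0.21 and 0.07 for Krt5). Vim correlated near 0 with Cdh1 (−0.05, −0.03 and 0.07) and with Snai2 (0.11, 0.07 and 0.01). For Cdh1 the most alike genes were Sort1, Sulf2, Pdcd4, Hid1 and Mfsd6, with lowest values of 0.14 to 0.18 that are weak for sparse counts. For Cdh3, which the single-cell libraries did not list, no comparison could be made.

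Grouping the 1100 cells by their expression, with the members left out of the variable genes, gave 7 clusters, lettered A to G by size. They are used to describe the members and not as a test. Clusters A, B, C and G held 1490 to 2810 CPM of Krt14 and 1340 to 2570 CPM of Krt5, and F held 1210 and 975 CPM. Clusters D and E held 290 and 291 CPM of Krt14, 78.4 and 69.5 CPM of Krt5, and 451 and 540 CPM of Krt18, against 104 to 182 CPM of Krt18 in A, B, C and G. Cluster F was mixed, since its 417 CPM of Krt18 was nearer to D and E. Control cells made up 206 of the 210 cells of A and 103 of the 119 cells of F and were not found in C and G, so in these clusters genotype, library and cell state cannot be told apart.

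Snai2 divided the clusters along this line. It was at 106 CPM in A, 160 in B, 187 in C and 178 in G, at 45.4 CPM in F, and at 9.74 and 10.4 CPM in D and E, a range of 19.2 times. In D the level of Snai2 was low in each library, with 7.19 CPM in GR17, 13.4 in GR18 and 8.54 in GR19. Cdh2 followed the same line less steeply, from 73.7 CPM in B to 27.1 in D and 20.5 in E, a range of 3.60 times. Snai1 ran the other way over the pooled cells. It was highest in E at 25.2 CPM (19.6 to 31.8) and next in D at 14.3 CPM (11 to 18.2), and lowest in A at 2.92 CPM (1.6 to 4.91). Nearly all cells of A are control cells, however, and the order was not that of the control cells, in which Snai1 was at 7.7 CPM in F (4.1 to 13.2), 2.97 in A (1.62 to 4.98) and 2.06 in D (0.249 to 7.42). In GR18 and GR19 it was highest in E (20.6 and 33.6 CPM) and next in D.

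Within clusters D and E the Snai1 counts came mostly from the SOX4KO libraries, which also gave most of the cells. In D there were 2 UMIs in 36 cells of GR17, 13 in 45 cells of GR18 and 51 in 76 cells of GR19. These are 2.06 (0.249 to 7.42), 9.15 (4.87 to 15.6) and 22.9 CPM (17.1 to 30.1). In E there was 1 UMI in 15 cells of GR17, with 25 in 63 cells of GR18 and 44 in 55 cells of GR19. These are 3.96 (0.1 to 22.1), 20.6 (13.3 to 30.4) and 33.6 CPM (24.4 to 45.1). In both clusters the control interval overlapped that of GR18 and lay below that of GR19. In the SOX4KO libraries the SNAIL family genes thus had their highest levels in different clusters. In GR19 cells with a Snai1 UMI held 70.5 CPM of Snai2 and 595 CPM of Krt14, against 108 and 1140 CPM in cells without. In GR18 the same values were 97.5 and 1040 CPM against 127 and 1770 CPM. In GR17 they were 65.1 and 1480 CPM against 79.1 and 1590 CPM, a narrower gap. For Krt5 the direction was not shared, since cells with a Snai1 UMI held 184 against 617 CPM in GR19 and 780 against 1580 CPM in GR18, but 2170 against 1840 CPM in GR17. Cells with a Snai1 UMI were also deeper, with medians of 23523, 23161 and 25942 UMIs in GR17, GR18 and GR19. Cells without had medians of 19749, 19728 and 20868 UMIs, and the part of depth in these gaps was not tested.

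**Figure D5:**
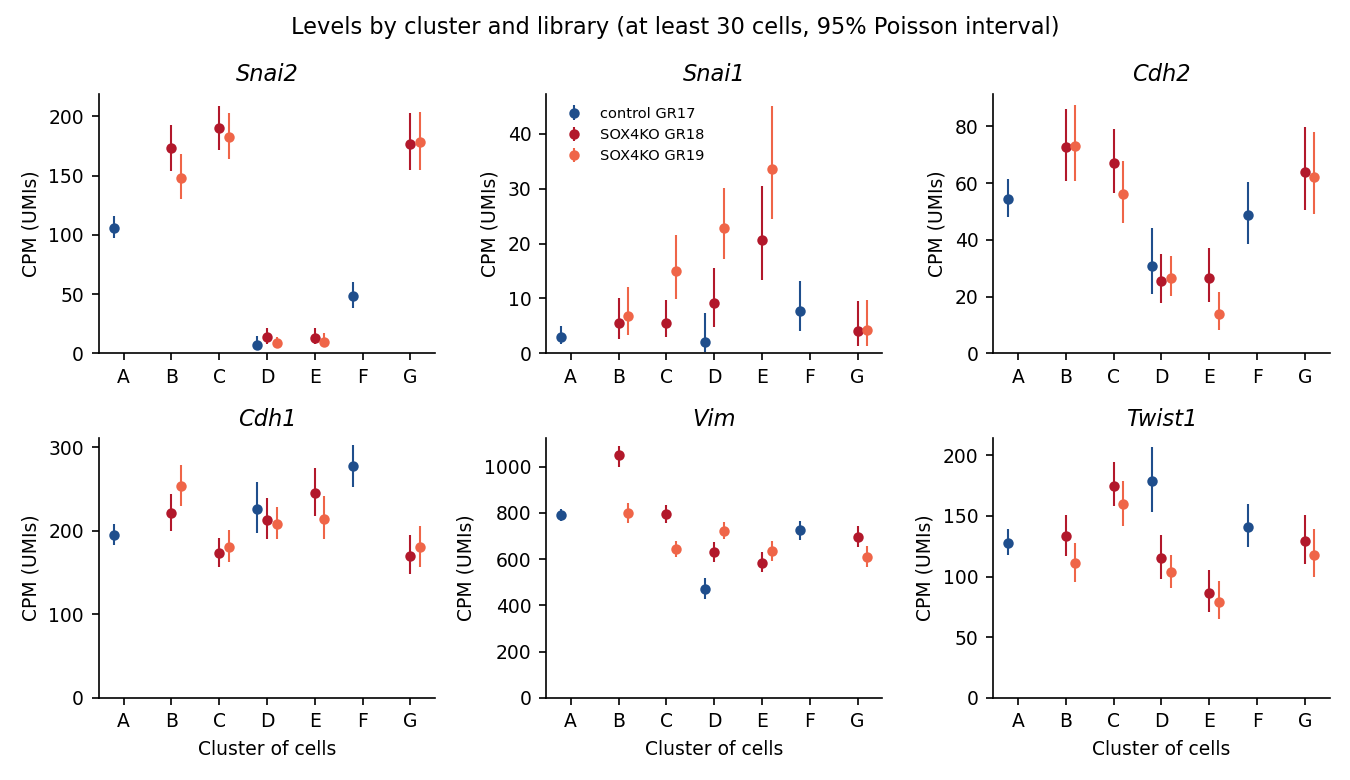
CPM from UMIs of 6 members in clusters A to G, shown per library where at least 30 cells of that library were in the cluster, with 95% Poisson intervals. Snai2 and Cdh2 are low in D and E, Snai1 is highest there in the SOX4KO libraries, and Vim runs from 471 CPM (D, GR17) to 1050 CPM (B, GR18).

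Vim, Cdh1 and Twist1 varied less between the clusters when the libraries were pooled. Vim ranged from 584 CPM in E to 919 CPM in B, or 1.57 times, Cdh1 from 175 CPM in G to 271 CPM in F, or 1.55 times, and Twist1 from 87.5 CPM in E to 168 CPM in C, or 1.92 times. In cluster D, which had over 30 cells of each library, Vim was at 471 CPM (429 to 516) in the control cells, and at 629 CPM (589 to 672) and 723 CPM (688 to 760) in the cells of GR18 and GR19, so both SOX4KO libraries were above the control library in these cells by more than counting error. Clusters E, B and F had fewer control or SOX4KO cells. In E the 15 control cells held 313 CPM (248 to 390), against 585 CPM (542 to 629) in GR18 and 636 CPM (593 to 680) in GR19. In B the 9 control cells held 543 CPM (398 to 725), against 1050 (999 to 1090) and 797 CPM (754 to 842). Both SOX4KO libraries thus lay above the control interval in E and B, as in D. In F the control cells held 724 CPM (684 to 766). The 9 cells of GR18 and 7 of GR19 lay on both sides, at 871 (701 to 1070) and 578 CPM (398 to 812), with intervals that overlapped the control. In the Krt14-rich clusters no cluster held over 9 control cells beside a sizeable SOX4KO group, and Vim was at 789 CPM in the control cells of A and between 609 and 1050 CPM in the SOX4KO cells of B, C and G. The 3.04-fold difference of Vim in bulk and the ratios of 1.09 and 0.961 between single-cell libraries, per all UMIs, come from different assays. They also come from lines that could not be matched, and the gap between them was not tested.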

How the data were processed

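Bulk libraries came from a stranded kit and single-cell libraries from a plate method. The authors deposited raw read counts per Ensembl gene and UMI counts for each gene in each well, none of them normalized; the submitters' processing notes name STAR 2.4.2a, HTSeq and the mouse builds NCBIM37 and mm9, with no role stated. Counts were tested in R 4.3.3 using the quasi-likelihood test of edgeR 4.0.16 (TMM scaling after filterByExpr, Benjamini-Hochberg adjustment over 11682 genes, threshold 0.1), with DESeq2 1.42.0 as an alternative. CPM used TMM-scaled library sizes, and RPKM used merged exon lengths from GENCODE for GRCm38, not the annotation behind the counts. Spike-ins were removed and wells with at least 1000 UMIs kept (15, 15 and 22 left out). No doublets were called, and wells over 2 times the library median were left out as an alternative. Cells were clustered with Seurat 5.3.0 (2000 variable genes minus 5 members, 10 components, 20 neighbours, resolution 0.5). Intervals are exact, at 95%, and a count of 0 has a floor of 3 counts. Steps were tested on simulated data. Members and lists were chosen with earlier results of these data known. Named genes were all members, the called genes of each list (up to 4 per direction) or the 2 most abundant where none was called, and the 5 genes most like (by the lowest Spearman correlation over the 3 libraries) Vim, Snai2, Cdh1, Cdh2 and Cdh3 among those seen in 20% of cells of each library. Marker genes given for clusters and for cells without Cdh1 were added after values were seen. So were single genes of the marker lists that were at or near 0 or not called. Older list symbols were matched through RefSeq. DESeq2 size factors, no filter, a threshold of 0.05, each line left out, UMI minimums of 500 and 2000, and depths of 10000 UMIs were also tried.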

Additional observations from a re-analysis of the deposited data

How the results depend on the processing

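Vim and Snai2 were the called members with DESeq2, with DESeq2 size factors, with no filter on low counts and at an adjusted p under 0.05, and over the leave-outs the number of called members ran from 0 to 2. It was 0 without WT1 and without WT3, fits in which the 1 control line left borrows its spread from the SOX4KO lines. Of the genes on the other lists 18 were called, and 26 with DESeq2. Over all genes, 733 were called, 1686 with no filter and 354 at an adjusted p under 0.05, and over the leave-outs between 56 and 1006. Of 72 alternative values of the members' log2 fold changes, 65 kept direction and side of the threshold, 4 were no longer called (Vim and Snai2 without either control line) and 3 changed sign, none of them called: Snai1 was at −0.54 without H4, and Fn1 at 0.31 without H4 and at 0.19 without WT1 (over the leave-outs −0.54 to 0.57 for Snai1 and −0.55 to 0.31 for Fn1). The cause was not tested. No paired analysis was possible because the lines were numbered here in the order of the samples and nothing in the labels ties a control line to a SOX4KO line.

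The share of cells with Cdh1, Cdh2 and Vim moved with depth by construction. At 10000 UMIs it was 30.8%, 35.8% and 27.5% in GR17, GR18 and GR19, with at least 2 UMIs of each gene 1.39%, 0.274% and 0.838%, and with all UMIs of a cell, an alternative chosen after seeing the data, 55.3%, 55.8% and 52.8%. Other UMI minimums and leaving out wells of very high UMIs kept it within its interval. Of 63 alternative single-cell levels, 62 stayed within their counting interval, and Vim in GR18 was at 801 CPM without wells of very high UMIs. Counts of Zeb1, Zeb2, Cdh3 and Fn1 are too low at this depth to show any but large differences.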
